A study of Mus musculus with 6 samples.

Results

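The features examined were Nprl3 and the adult alpha-globin genes Hba-a1 and Hba-a2, which are 3 of the 54590 gene rows in the deposited count table and neighbours on mouse chromosome 11. They were chosen by the level of Nprl3, which earlier results of these data showed far higher in library 3 of each group, so its levels in the libraries are a description and carry no test. The samples were hippocampal microglia, the resident macrophages of the brain, taken at 3 weeks of age from mice that are Tmem119-tdTomato+/-, meaning that they carry 1 copy of a fluorescent reporter in a gene typical of microglia. Control mice (Ctrl) gave 3 libraries and mice with the label FGR, for growth restriction before birth, gave 3, and both groups had the same age, tissue and reporter genotype. Each library came from the RNA of 3000 microglia. The sources used here do not give how growth was restricted, the sex of the mice or the number of animals behind a library. Since separate animals are not stated either, a p-value reflects the spread from library to library alone, and that may be technical.

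Nprl3 encodes a subunit of GATOR1, a complex that holds the growth kinase mTORC1 inactive when amino acids are scarce. Hba-a1 and Hba-a2 encode the alpha chain of adult haemoglobin, which red blood cells and their precursors make in very large amounts and which microglia are not known for. The genes belong to one conserved neighbourhood, and introns of Nprl3 hold enhancers that drive the alpha-globin genes in red cell precursors. In a bulk RNA sample of isolated cells, red cells left in the preparation would be read as globin RNA.

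In the GENCODE M21 annotation of GRCm38 (mm10), Nprl3 (ENSMUSG00000020289) lies on the minus strand of chromosome 11 from 32225628 to 32267707. Hba-a1 (ENSMUSG00000069919) lies on the plus strand from 32283511 to 32284465, and Hba-a2 (ENSMUSG00000069917) on the plus strand from 32296489 to 32297298. The end of Nprl3 is thus 15.8 kb below Hba-a1 and 28.8 kb below Hba-a2. The coding sequences of Hba-a1 and Hba-a2 differ at 1 of 426 bases before the stop codon, written C381T (Hba-a1 base first, counted from 1 at the first base of the start codon), which leaves GAC in one gene and GAT in the other at codon 127. The coding parts of exon 3 are shown because they hold that base, in capitals.
Hba-a1 exon 3 coding, chr11:32284263-32284388, plus strand: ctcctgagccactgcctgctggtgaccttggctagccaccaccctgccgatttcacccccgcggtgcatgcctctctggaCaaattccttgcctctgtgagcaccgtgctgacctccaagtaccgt
Hba-a2 exon 3 coding, chr11:32297080-32297205, plus strand: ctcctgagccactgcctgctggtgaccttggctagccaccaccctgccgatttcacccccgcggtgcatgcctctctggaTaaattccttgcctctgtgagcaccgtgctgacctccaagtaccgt
Exon 2, of 205 bases, is the same in both genes. Of the 535 words of 20 bases in the spliced Hba-a2 transcript, 499 also occur in that of Hba-a1, so reads from either copy often cannot be placed, and counts under the labels Hba-a1 and Hba-a2 are uncertain between them. Neither gene shares sequence of read length with Nprl3: of 827 words of 15 bases in 4 alpha-globin transcripts, 0 occur in the 16 Nprl3 transcripts on either strand, and of as many words of 12 bases 7 do.

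The libraries differed in depth and in how they relate. Totals ran from 1553588 to 11364316 counts, with library 3 the deepest in each group, at 10201412 in Ctrl and 11364316 in FGR. Libraries 1 and 2 of a group were near copies: among features with at least 1000 and under 10000 counts in the pair, the chi-square between them was 2.63 to 2.77 per feature, against 20.4 to 51.7 in the other 13 pairs. Each such pair was therefore summed and counted as 1 sample, which leaves 2 samples a group. No label names a batch, so what sets library 3 apart cannot be told from the labels. Of 30 microglial labels 26 had at least 10 counts over all libraries, but Tmem119 had 29, Cx3cr1 47 and C1qa 3, while Tgfbr1 held 157940 of the list's 197233. Tmem119, Cx3cr1 and C1qa, which are typical of microglia, were thus near absent. Other microglial labels were not: 15 of the 30 reached 10 CPM, among them Sall1 with 4292 counts and P2ry12 with 873. Whether each label carries the reads of its own gene was not tested. Every feature is named by its label in the count table.

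Nprl3 was detected in all 6 libraries and was highest in library 3 of each group. It had 16, 7 and 403 counts in Ctrl libraries 1, 2 and 3, which is 5.38, 4.51 and 39.5 counts per 1000000 counts of the library total (CPM). In FGR libraries 1, 2 and 3 it had 32, 16 and 1285 counts, or 9.53, 8.97 and 113.1 CPM. Ctrl library 3 lay above FGR libraries 1 and 2, so the groups overlapped. Library 3 exceeded the sum of libraries 1 and 2 by 7.77-fold in Ctrl (95% interval 5.11 to 11.8) and by 12.1-fold in FGR (9.08 to 16.2). These intervals cover counting error only, and reads copied by PCR are not independent molecules. In bulk RNA, more cells that hold a transcript and more of it per cell cannot be told apart.

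Hba-a1 and Hba-a2 had 2 counts each over all libraries under their own labels. Hba-a1 had 1 count in Ctrl library 3, 1 in FGR library 3 and 0 in the other 4 libraries. Hba-a2 had 2 counts in FGR library 1 and 0 elsewhere. All values were at or under 3 counts, the limit that a count of 0 allows, which is 0.294 CPM in Ctrl library 3, 0.264 CPM in FGR library 3 and 0.893 to 1.93 CPM in the shallower libraries, so no fold is given. Low counts also occurred under other labels. Of 30 labels of genes abundant in most cells, 8 reached 10 CPM in 1 or more samples, beside 10875 of all 54590 features. In all libraries 4 of the 30 were at 0, namely Tuba1a and the non-coding RNAs Rn7sk, Rmrp and Rpph1. Among the others, Actb had 44 counts over all libraries, B2m 14 and Tmsb4x 2, while Gapdh had 18098. With 2 counts each, a difference between the libraries was not detectable under the alpha-globin labels.

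**Figure D1:**
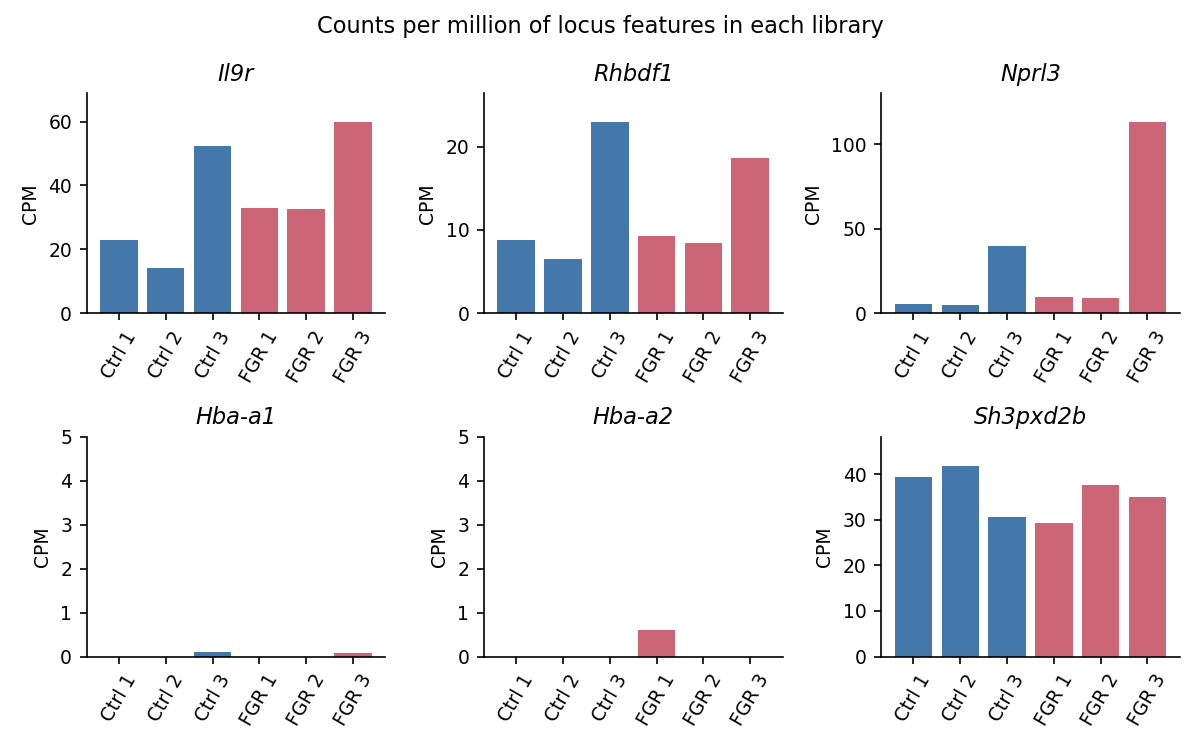
CPM (vertical axis, linear, a separate scale in each panel) in each of the 6 libraries for Nprl3, Hba-a1, Hba-a2 and 3 neighbouring labels; blue bars are Ctrl libraries and red bars FGR libraries. Nprl3 stood at 39.5 CPM in Ctrl library 3 and 113.1 in FGR library 3 and under 10 elsewhere, while the few counts of Hba-a1 and Hba-a2 hardly show.

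The rise of Nprl3 in library 3 was rare among features. Of 10875 features with at least 10 CPM in 1 or more of the 4 samples, 7 (0.0644%) were 4-fold or more higher in library 3 in both groups, on the scale of CPM with 0.5 added, and 4 (0.0368%) were as much lower. This contrast chose Nprl3, so its place among them is a description. The minimum of 10 CPM was taken on the highest sample. In libraries 1 and 2 summed, Nprl3 stood at 5.08 CPM in Ctrl and 9.34 in FGR. It thus entered through library 3 alone. Of the 7, only Gm49427, at 11.7 CPM in FGR libraries 1 and 2, did not. The numbers past 4-fold and the ranks therefore give no independent background. The median fold over all 10875 features was 1.03 in Ctrl and in FGR alike. Nprl3 ranked 5 of 10875 in Ctrl and 2 in FGR. On the smaller of its folds in the groups, 7.17, it followed the mitochondrial serine tRNA mt-Ts1 at 8.63. In libraries 1 and 2 summed, mt-Ts1 had only 0.884 CPM in Ctrl and 1.56 in FGR, so its fold is imprecise. The 5 others, named after their values were seen, were Capn10, Gm45195, Gm49427, the mitochondrial valine tRNA mt-Tv and Gm13070, which was just inside the limit at 4.18. Lpar1 was just outside it at 3.96.

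**Figure D2:**
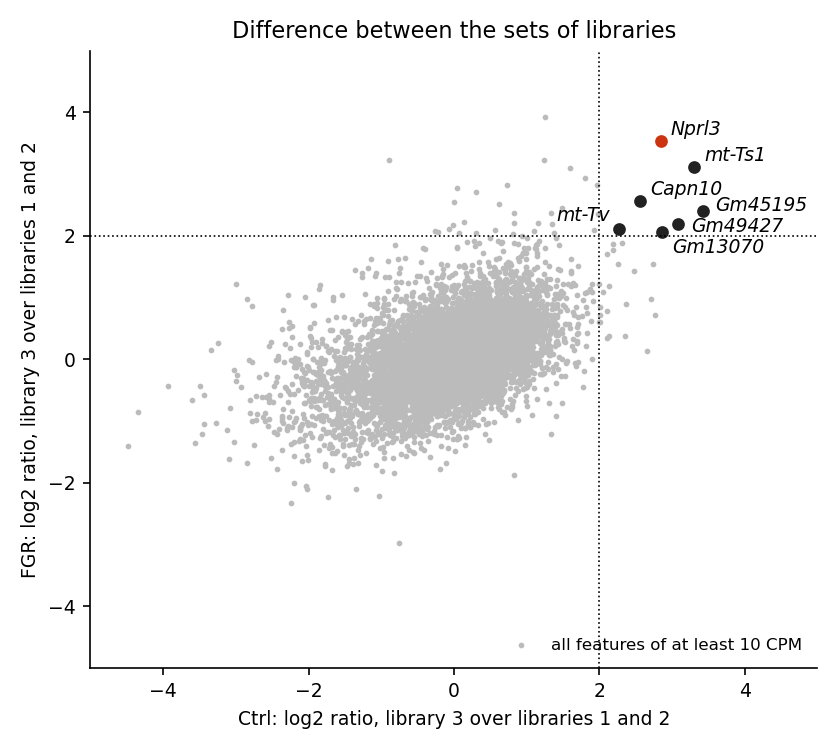
Log2 ratio of library 3 over the sum of libraries 1 and 2 in Ctrl (horizontal axis) and in FGR (vertical axis) for 10875 features, each a point, from CPM with 0.5 added. Dotted lines mark a 4-fold ratio, and the 7 features past it in both groups are named, with Nprl3 in red.

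By likeness of profile over the 4 samples, Nprl3 stood nearest to features on other chromosomes. The measure was the Euclidean distance between log2 values of CPM with 0.5 added, each centred on its own mean. It was 0.815 for mt-Ts1, 0.909 for the pseudogene Gm45195 on chromosome 7, 1.01 for the long non-coding RNA Gm49427 on chromosome 9, 1.16 for the antisense RNA Gm13070 and 1.23 for the small nuclear RNA Gm24978, both on chromosome 4. Gm49427 went from 4.42 to 41.3 CPM in Ctrl, close to Nprl3, but from 11.7 to 55.2 CPM in FGR. In Ctrl libraries 1 and 2 summed, mt-Ts1 and Gm45195 stood at 0.884 CPM each, near the 0.5 CPM added, so their distances are imprecise. With 4 samples the measure ranks features and says nothing more.

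Around Nprl3, 3 neighbours at lower coordinates had more CPM in library 3 than in libraries 1 and 2 of each group, with smaller folds than Nprl3. The intervals given cover counting error only, and by the chi-square above features in general differed by more than that between library 3 and the others, so no neighbour is called. Il9r, a receptor for interleukin 9 that lies below Nprl3, stood at 22.9, 14.2 and 52.4 CPM in Ctrl libraries 1, 2 and 3 and at 33.1, 32.5 and 59.8 CPM in the FGR libraries. Its fold of library 3 over libraries 1 and 2 was 2.64 in Ctrl (95% interval 2.11 to 3.30) and 1.82 in FGR (1.54 to 2.15). Rhbdf1, an inactive relative of the rhomboid proteases, had folds of 2.88 (2.03 to 4.10) and 2.09 (1.52 to 2.87). Snrnp25, a part of the minor spliceosome, had 2.07 (1.24 to 3.44) and 2.18 (1.36 to 3.48). Above the globin genes, Sh3pxd2b, an adaptor of podosomes, was at 0.761 (0.634 to 0.913) and 1.09 (0.908 to 1.31), and Ubtd2, a ubiquitin-like domain protein, at 1.42 (0.912 to 2.20) and 1.13 (0.776 to 1.65). Of 9 other features of at least 10 CPM within 500 kb of Nprl3, 0 passed 4-fold in both groups, which at 0.0644% of all features says nothing about them.

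Per length of exon, the level of the Nprl3 label was below those of these 5 neighbours in libraries 1 and 2 and above them in FGR library 3. In libraries 1 and 2 it had 0.671 CPM per kb of exon in Ctrl and 1.23 in FGR, below Il9r at 4.02 and 6.64, Rhbdf1 at 1.46 and 1.65 and Sh3pxd2b at 4.14 and 3.31. In FGR library 3 it had 14.9 CPM per kb of exon, above Il9r at 12.1, Snrnp25 at 8.54 and Rhbdf1 at 3.43. In Ctrl library 3 it had 5.22, above Rhbdf1 at 4.22 and below Il9r at 10.6 and Snrnp25 at 7.91. Mpg, a DNA repair glycosylase whose exons share 1340 of their 3752 bases with Nprl3 exons on the other strand, had 9 counts in all.

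The remaining globin labels were low too, with 6 to 35 counts each over the 6 libraries. The embryonic Hba-x had 17 counts over all 6 libraries, the theta-like Hbq1a 24 and Hbq1b 13. On chromosome 7, the adult beta-globin labels Hbb-bs and Hbb-bt had 10 and 6 counts, and the embryonic Hbb-y, Hbb-bh1 and Hbb-bh2 had 35, 8 and 6. Hbb-b1 and Hbb-b2 were not matched to a row. Hbq1b had 11 counts in Ctrl libraries 1 and 2 and 0 in Ctrl library 3, so it went against the direction of Nprl3. Of 87 features within 500 kb of Hbb-bs and Hbb-bt, 13 had at least 10 CPM and could be compared. Their folds in the groups ran from 0.213 to 1.96, and 0 were 4-fold or more higher in both, beside 0.0644% of all features.

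The position of the alpha-globin genes against the Nprl3 label was examined next, since the globin genes are held to lie about 50 kb lower in the GRCm39 build, and reads placed on one build and counted by the labels of another would be credited to the wrong label. The submitters' processing notes name mm10 alone. GRCm39 positions were not used here, so the question was put to the GRCm38 annotation by moving each gene along it. Hba-a1 lay whole within the Nprl3 span at any shift from 16.8 to 57.9 kb lower and Hba-a2 at any from 29.6 to 70.9 kb, hence both at 29.6 to 57.9 kb lower, which includes 50 kb. Moved up by 50 kb, neither met any label.

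At a shift of exactly 50 kb lower, Hba-a1 met exons of Nprl3 and Hba-a2 met only an intron. Hba-a1 then spanned 32233511 to 32234465, and 364 of its 812 exon bases fell on Nprl3 exons. Those bases are merged over all its annotated transcripts. In the transcript taken to number its exons, exon 2 fell on Nprl3 exons with all 205 bases. Exon 3 of that transcript did so with 139 of 203 and exon 1 with 0 of 291, so the exons need not add up to 364. Of exon 2, 173 bases lay over a coding exon of Nprl3, and the rest over a longer form of that exon (32233904 to 32234401) in an Nprl3 transcript that retains an intron. Both sequences are shown because they are what would lie on top of each other, 5′ to 3′ on each gene's own strand, with the 173 bases in question in capitals.
Hba-a1 exon 2, chr11:32283924-32284128, plus strand: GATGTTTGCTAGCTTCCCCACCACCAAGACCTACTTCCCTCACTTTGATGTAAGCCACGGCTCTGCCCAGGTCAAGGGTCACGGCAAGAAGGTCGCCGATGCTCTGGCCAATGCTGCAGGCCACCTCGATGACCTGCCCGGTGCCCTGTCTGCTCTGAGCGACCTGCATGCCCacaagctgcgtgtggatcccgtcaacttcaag
Nprl3 coding exon, chr11:32233904-32234096, minus strand: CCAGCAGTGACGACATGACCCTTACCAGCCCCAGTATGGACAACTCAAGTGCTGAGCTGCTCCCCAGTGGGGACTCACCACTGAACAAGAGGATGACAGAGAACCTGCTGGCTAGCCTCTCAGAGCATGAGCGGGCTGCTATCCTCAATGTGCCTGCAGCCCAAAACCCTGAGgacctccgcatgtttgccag
The sequences are from the GENCODE M21 transcripts on GRCm38. The overlap would be one of position and not of sequence, as the word counts above show.

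Moved 50 kb lower, the other globin genes of the locus and Nprl3 itself met labels as well, while Mpg, Rhbdf1, Snrnp25 and Il9r met none. The embryonic Hba-x met Nprl3 exons with 359 of its 938 exon bases and Mpg exons with 472, Hbq1b met Nprl3 exons with all 725 and Hbq1a with 88 of 604. Nprl3 itself, moved in the same way, met Il9r exons with 1128 of its 7572 exon bases, Rhbdf1 exons with 168 and Snrnp25 exons with 130. Over trial shifts of 45 to 55 kb in steps of 1 kb, Hba-a1 met Nprl3 exons in 8 of 11, with 0 to 812 bases, and Hba-a2 in 3 of 11, with 0 to 314 bases; at least one of them did in 9. How much of the globin exons falls on Nprl3 exons thus depends on the exact shift, while the place inside the Nprl3 span does not.

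**Figure D3:**
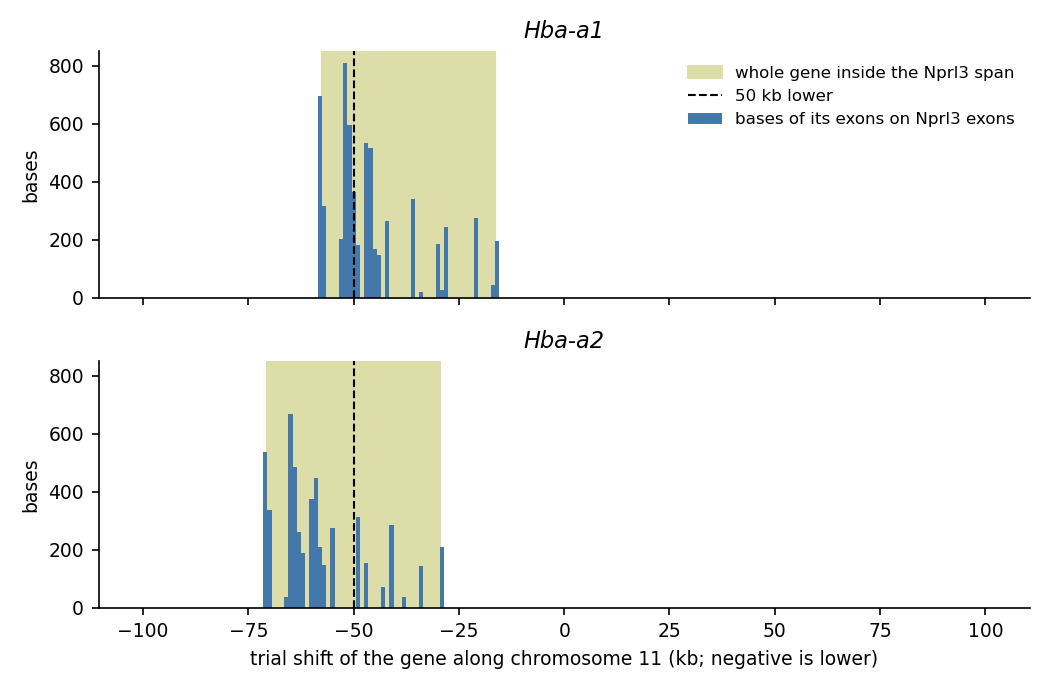
Bases of Hba-a1 exons (top) and Hba-a2 exons (bottom) that fall on Nprl3 exons (vertical axis) when the gene is moved along chromosome 11 of the GRCm38 annotation in steps of 1 kb (horizontal axis, kb). The shaded range is where the whole gene lies inside the Nprl3 span, and the dashed line marks 50 kb lower, which lies in the shaded range of both genes.

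Because Nprl3 and the globin genes lie on opposite strands, the counts were examined for whether they keep strands apart. Features with at least 300 and under 3000 exon bases were used, outside the mitochondrial genome. Of 243 such features with at least 99% of their exon bases under exons of genes on the opposite strand alone, 234 (96.3%) had 0 counts in all 6 libraries. Of 165 features under exons of the same strand, 158 (95.8%) had 0. Of 25095 features whose exons overlap no other gene, 1227 (4.89%) had 0, and their median was 15.8 counts per kb. Features under exons of either strand were thus mostly at 0, and the share at 0 was similar for the strands. The sources used here do not give the strand setting of the counting. Gene-level counts do not say where in Nprl3 its reads lie, so whether its row holds alpha-globin reads was not tested.

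**Figure D4:**
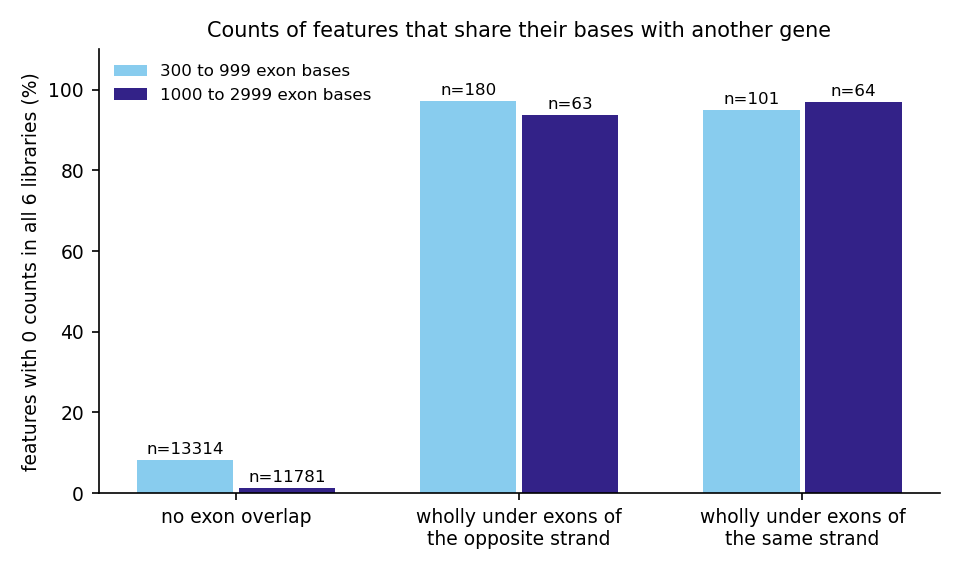
Share of features with 0 counts in all 6 libraries (vertical axis, percent) among features with no exon overlap, wholly under exons of the opposite strand, or wholly under exons of the same strand; light and dark bars are shorter and longer features, with the number of features above each. Features under exons of either strand were at 0 in over 90% of cases.

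Labels of red cells and other blood cells had median folds of library 3 over libraries 1 and 2 of 0.866 to 1.07, beside 1.03 over all features. The red cell list had 14 members of at least 10 CPM, of which 0 were 4-fold higher in library 3 in both groups (0.0644% of all features were, so 0 is no result), with a median fold (CPM with 0.5 added) of 0.895 in Ctrl and 0.948 in FGR, beside 1.03 over all features. Its member with the most counts was Epb41, a protein of the red cell skeleton that other cells also make, with folds of 1.81 and 2.36; Gypc had 1.50 and 1.13, Tent5c 0.798 and 0.795 and Ank1 0.880 and 0.911. The summed CPM of the red cell list was 1722 and 1759 in Ctrl libraries 1 and 2 and 2281 in Ctrl library 3, against 1591, 1586 and 2242 in the FGR libraries; Epb41 alone went from 675 to 1222 CPM in Ctrl and from 538 to 1270 in FGR. None of its 43 matched members was at 0. The anion exchanger Slc4a1, which defines red cells, had folds of 0.512 and 1.78. Median folds were 0.991 and 1.07 for 4 neutrophil labels, 0.866 and 0.893 for 3 platelet labels and 0.919 and 1.01 for 4 lymphocyte labels, with 0 past 4-fold. Whether these labels carry the reads of their own genes was not tested. Their folds therefore cannot decide whether blood cells were present in library 3. The part of blood cells in the Nprl3 counts was not tested.

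Between FGR and Ctrl, Nprl3 was higher in FGR in each set of libraries, but the difference did not pass the test. FGR exceeded Ctrl by 1.84-fold in the summed libraries 1 and 2 (95% interval 1.12 to 3.02, counting error only) and by 2.86-fold in library 3 (2.56 to 3.20). The mean was 61.2 ± 73.4 CPM in FGR and 22.3 ± 24.3 in Ctrl (SD, n = 2), so the spread in FGR was larger than the difference of the means. That spread lies between libraries 1 and 2 summed and library 3, the contrast that chose Nprl3 and that both groups share. The edgeR quasi-likelihood test on summed pairs gave a log2 fold change of 1.45 (SE 1.32) with a Benjamini-Hochberg adjusted p of 0.9998. Of 24149 features it called 0 (0%), while 327 had an unadjusted p under 0.05; DESeq2 and limma-voom also called 0. With the set of libraries (1 and 2 summed, or 3) as a replicate block, edgeR put Nprl3 at 1.41 (SE 0.29) on the log2 scale, adjusted p 0.0630, and the 1 call of 24149 (0.00414%) was Gm36947, lower in FGR and named after its value was seen. With the near copies kept as separate libraries, the block was the library number, 1, 2 or 3. Nprl3 was then the 1 call of 16075 features (0.00622%), at a log2 fold change of 1.43 (SE 0.25) and an edgeR adjusted p of 0.0249. That fit counts near copies as independent and pairs Ctrl and FGR libraries by number, a pairing that no label gives. The feature was also picked with this result known. Without FGR library 3 the log2 fold change was -1.38, and without Ctrl library 3 it was 3.90, but each of these sets a group with library 3 against a group without it. Within libraries 1 and 2 and within library 3, FGR was higher by the folds given above. Hba-a1 and Hba-a2 had too few counts to be tested.

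**Figure D5:**
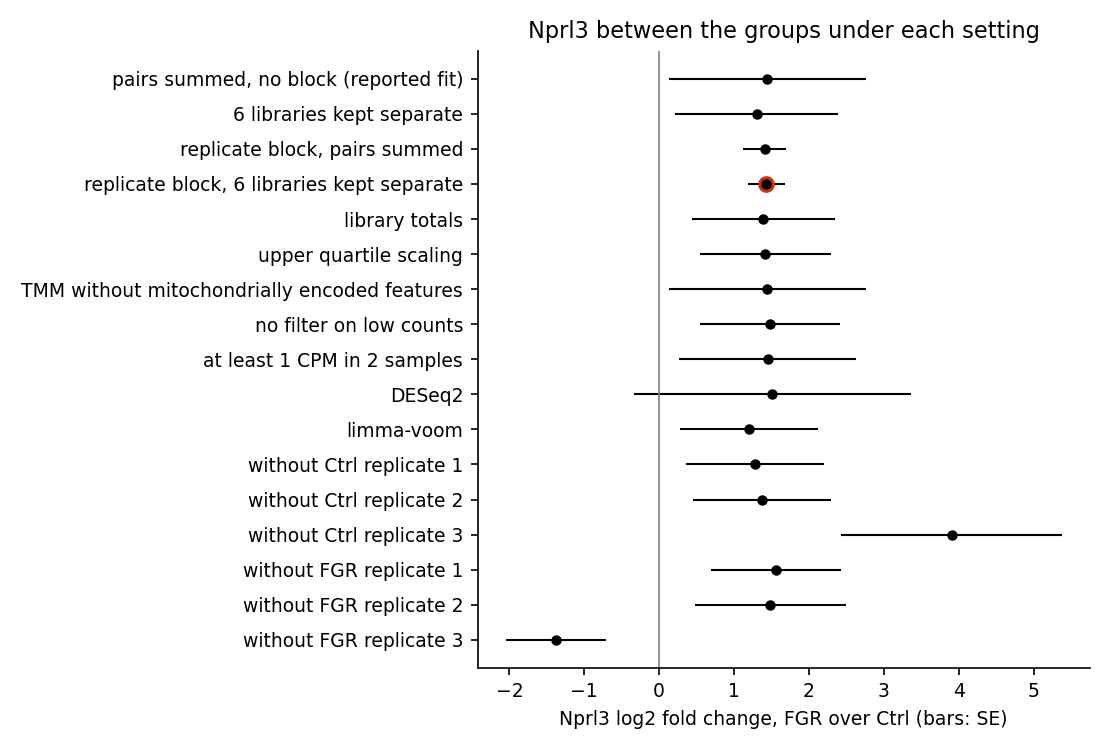
Log2 fold change of Nprl3, FGR over Ctrl (horizontal axis, bars are the SE), under the reported fit and each alternative (vertical axis). The point ringed in red is the 1 setting with an adjusted p under 0.05; the values run from -1.38 to 3.90, both without library 3 of a group.

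Among other labels of amino acid sensing, 6 of 8 in GATOR2 and KICSTOR and 15 of 28 of the sensors, Rag GTPases and mTORC1 had at least 10 CPM. Of these, 0 passed 4-fold in library 3 of both groups, beside 0.0644% of all features. Depdc5, the GATOR1 subunit that contacts the Rag GTPases, stood at 121.1, 103.0 and 130.3 CPM in Ctrl libraries 1, 2 and 3 and at 127.2, 148.6 and 131.7 in the FGR libraries. Its folds of library 3 over libraries 1 and 2 were 1.13 (1.02 to 1.25) and 0.979 (0.894 to 1.07), with intervals that cover counting error only. Nprl2, the direct partner of Nprl3, had 35 counts in all, of which 5 were in Ctrl library 3 and 18 in FGR library 3. The folds of Nprl2 over libraries 1 and 2 were 0.555 in Ctrl (0.149 to 2.07) and 1.02 in FGR (0.443 to 2.34). Between the groups, the edgeR log2 fold change was 0.20 (SE 0.29) for Depdc5 and 1.40 (SE 0.99) for Nprl2. Of 8 tested labels of GATOR2, which counters GATOR1, and KICSTOR, which holds it at the lysosome, 0 passed the test, 7 were above 0 in log2 fold change and 1 below, with a median of 0.16. Of 22 tested labels of the amino acid sensors, Rag GTPases and mTORC1, 0 passed the test, 14 were above 0 and 8 below, with a median of 0.03. The median of all tested features was -0.03. By edgeR, the smallest unadjusted p were 0.214 for Lamtor1, a part of the lysosomal scaffold of the Rag GTPases (log2 fold change -0.82, SE 0.63), and 0.226 for Sesn3, a sestrin (0.55, SE 0.43). In GATOR2 and KICSTOR, Mios, a GATOR2 subunit, was at 0.35 (SE 0.30).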

How the data were processed

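RNA of microglia was measured in 6 libraries, 3 a group, with totals of 1553588 to 11364316 counts. The authors deposited raw read counts per gene. The submitters' processing notes name HTSeq 2.0.3, Bowtie2 2.4.5, Trim Galore 0.6.5, DESeq2 1.32.0 and SAMtools 1.3.1 without their roles, and the build mm10. The annotation and strand setting of the counts are not given in the sources used for this work. Labels and positions came from GENCODE M21 on GRCm38, which named 53620 of 54590 features.

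CPM were taken over library totals. Libraries 1 and 2 of a group were summed as 1 sample. FGR was tested against Ctrl with edgeR 4.0.16 (TMM, quasi-likelihood, Benjamini-Hochberg adjusted p under 0.05), after tests on simulated data, with DESeq2 1.42.0 and limma 3.58.1 as alternatives. The simulated data held no difference between the sets of libraries, so they do not show how the test performs with one. Library 3 was set against libraries 1 and 2 by fold alone, with 0.5 CPM added and a limit of 4-fold. Same-numbered Ctrl and FGR libraries deviated together, with correlations of 0.214, 0.173 and 0.481 for numbers 1, 2 and 3 over 9279 features. Ctrl 1 with FGR 2 gave 0.208 and Ctrl 2 with FGR 1 gave 0.196, so the values tie libraries 1 and 2 together as a set and not number by number, and no label gives a pairing. GRCm39 positions were not used here, so a trial shift of 50 kb, chosen after seeing the data, took their place.

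The members and lists were chosen with earlier results of these data known. The text names the members, the globins and their locus, GATOR1, up to 4 other amino acid sensing genes of smallest p, 4 red cell genes of most counts and the 5 features of profile most like Nprl3; Slc4a1 was added as a defining red cell gene. Some genes of these lists are not reported here.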

Additional observations from a re-analysis of the deposited data

How the results depend on the processing

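Between FGR and Ctrl, the count of called features was 0 and the log2 fold change of Nprl3 was 1.45. Both kept their side of the threshold and, for Nprl3, its direction in 14 of 16 alternatives. With the replicate block the count was 1, with pairs summed and with 6 libraries kept separate. In the latter the block was the library number, and Nprl3 passed, at 1.43 (edgeR adjusted p 0.0249). Without FGR library 3 the change of Nprl3 reversed to -1.38; that fit sets FGR libraries 1 and 2 against all of Ctrl, and within libraries 1 and 2 FGR was 1.84-fold higher. Leaving out each library in turn gave -1.38 to 3.90 for Nprl3 and 0 calls each time, and the other 10 settings gave 1.20 to 1.51 (adjusted p 0.0249 to 0.99998). The cause was not tested. Where 1 sample was left in a group, it was assumed to vary like the other group. The fold of library 3 over libraries 1 and 2 ran from 7.34 to 9.10 in Ctrl and from 11.9 to 12.6 in FGR over 4 alternatives each. The placing of red cell and globin genes by GRCm39 position, with its alternatives, was not run. The alpha-globin labels had 0 to 2 counts a library, for a reason that was not tested. Behind each Nprl3 value in libraries 1 and 2 stand 7 to 32 counts.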
